A study of Mus musculus with 6 samples.

Results

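Oxidative phosphorylation is carried out in the inner mitochondrial membrane by electron-transferring complexes, mobile carriers and an ATP synthase, most of whose subunits are encoded in the nucleus. The genes described here were taken by symbol: nuclear genes whose symbols begin with Nduf, Uqcr, Cox4, Cox5, Cox6, Cox7, Cox8 or Atp5, together with Sdha, Sdhb, Sdhc, Sdhd, Cyc1 and Cycs. That rule gave 95 genes of the 29267 in the tables: 36 of complex I, 8 complex I assembly factors named Ndufaf, 4 of complex II, 9 of complex III, Cycs, 20 of complex IV and 17 of complex V. RNA was sequenced from mouse neural stem cells of the OG2 strain at passage 8, either kept as neural stem cells (NSC) or differentiated and collected under a label that reads D2. Each state was cultured as a control, with naloxone, which blocks opioid receptors, or with DAMGO, a peptide that activates the mu receptor, which made 6 groups of 1 library each, NSC control, NSC naloxone, NSC DAMGO, D2 control, D2 naloxone and D2 DAMGO. The sources used here give no dose, exposure time or differentiation medium, and no label says that the libraries came from separate cultures, so the p-values below measure only the spread between these 6 libraries.

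Complex I oxidises NADH and complex II oxidises succinate, and both hand electrons to ubiquinone. Complex III passes them from ubiquinol to cytochrome c, and complex IV passes them from cytochrome c to oxygen. Complexes I, III and IV move protons across the membrane, and complex V lets them return while making ATP. Neural stem cells are generally described as relying strongly on glycolysis, with oxidative metabolism gaining weight as neural cells differentiate.

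Library totals were 8417074 to 13561237 estimated counts, with 17169 to 17881 genes holding a count. Levels between genes are given in TPM, in which counts are scaled for gene length and depth, and comparisons of 1 gene between libraries rest on CPM, counts scaled for depth by the TMM method. The labelled cell type was checked against marker genes: summed neural stem cell markers (4 of 6 rose, 2 fell) were at 6739 to 6857 CPM in NSC and 5168 to 5521 CPM in D2, the lower sum coming from Nes and Vim, and markers of microglia were at 0 to 0.189 CPM in all 6 libraries, with Cx3cr1 at 0. Summed proliferation markers (4 of 4 fell) were at 3179 to 3205 CPM in NSC and at 175 to 210.1 CPM in D2, astrocyte markers (6 of 6 rose) at 837 to 879 and 6592 to 6790 CPM, and oligodendrocyte lineage markers (7 of 7 rose) at 3060 to 3202 and 5727 to 6481 CPM. Neuron markers (3 of 6 rose, 2 fell) were at 1130 to 1186 CPM in NSC and 1235 to 1374 CPM in D2, fibroblast and pericyte markers (1 of 3 tested rose) at 0.550 to 8.64 and 9.60 to 16.2 CPM, and endothelial markers at 2.09 to 3.58 and 2.83 to 3.92 CPM. The higher fibroblast and pericyte sum in D2 came from Pdgfrb, at 0 to 0.148 CPM in NSC and 7.64 to 8.61 CPM in D2. Col1a1, Col1a2, Dcn and Lum overlapped between the states. The neural stem cell, proliferation, astrocyte, oligodendrocyte, neuron, and fibroblast and pericyte sums moved with the state in every comparison of NSC with D2 below. Their part in those differences was not tested. In these bulk libraries, fewer cells of a type and less RNA per cell cannot be told apart.

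The oxidative phosphorylation genes were highly expressed in both states. Together they held 1.13% of the counts in each NSC library and 1.11% to 1.16% in the D2 libraries, and 3.08% to 3.19% of all TPM. Their median level was 274 ± 2.26 TPM in NSC and 303 ± 6.74 TPM in D2 (SD over the 3 libraries of a state, which differ in ligand), against 27.0 ± 0.133 and 26.1 ± 0.311 TPM for all 13216 tested genes. Of the 95 genes, 88 passed the filter of a mean of 10 counts. Among these 88, mean TPM in NSC and in D2 ranked the genes in nearly the same order (Spearman's rho 0.936 across genes, a description, since both states come from the same gene models and tools).

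Levels within a complex could differ widely. Complex V spanned 8.22 TPM (Atp5s) to 2136 TPM (Atp5b) in NSC, complex I spanned 30.7 TPM (Ndufa11) to 618 TPM (Ndufc2), and complex II only 232 TPM (Sdhd) to 340.2 TPM (Sdhc). Median levels in NSC and D2 were 218 ± 6.34 and 250.1 ± 7.13 TPM for complex I, 261 ± 3.09 and 289 ± 5.31 TPM for complex II, and 336 ± 6.47 and 302 ± 9.46 TPM for complex III. For complex IV they were 635 ± 9.82 and 664 ± 21.1 TPM, for complex V 426 ± 1.79 and 453 ± 8.99 TPM, and for the Ndufaf assembly factors 28.1 ± 0.599 and 26.4 ± 2.08 TPM. The assembly factors, which help to build the enzyme without staying in it, thus had a far lower median than the subunits of any complex. Cycs was at 45.6 ± 3.04 TPM in NSC and 21.4 ± 2.11 TPM in D2. That low level depends on its estimated length, 2705 bases, against a median of 721 for the 88 tested genes. In CPM, not scaled for length, its mean over the 6 libraries was 40.8, above Ndufa1 at 31.5. Sums and medians did not move alike: the log2 ratio of D2 to NSC was -0.156 for the median of complex III while its summed TPM went from 3381 ± 53.3 to 3497 ± 74.8, and 0.087 for the median of complex V while its sum went from 10031 ± 38.9 to 9375 ± 55.3.

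**Figure D1:**
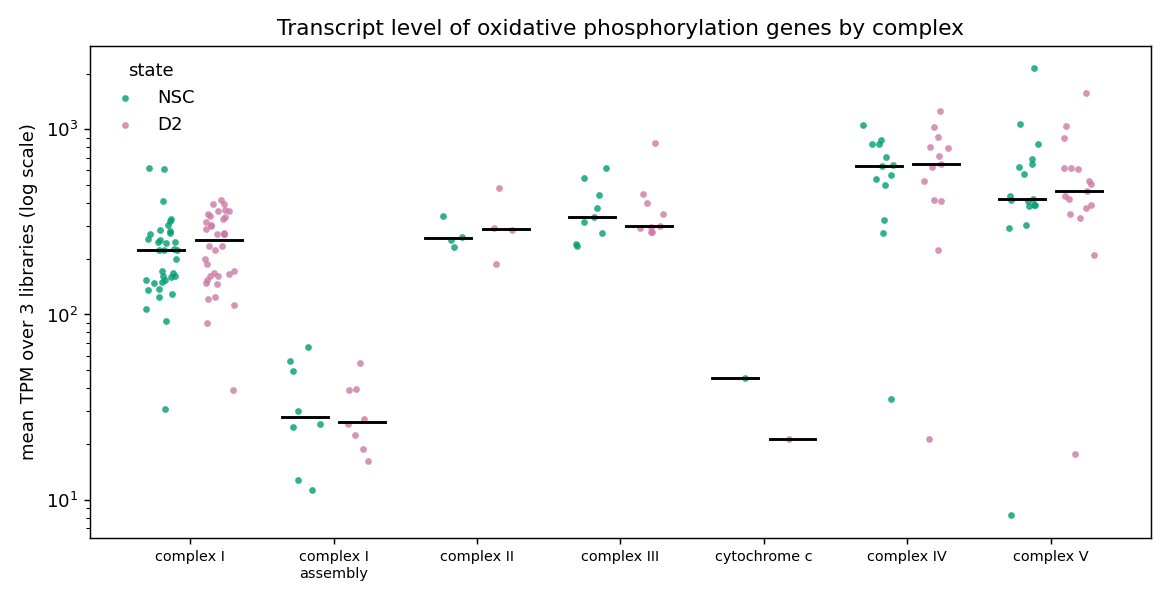
Mean TPM over the 3 libraries of a state (log scale) for each of the 88 tested genes, by complex, with NSC and D2 side by side. Each point is a gene and each bar the median over the genes of the group. Complex V has the widest spread, 8.22 to 2136 TPM in NSC, and the medians of the assembly factors and the level of Cycs lie below the medians of the complexes.

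Between NSC and D2, single oxidative phosphorylation genes moved in both directions by small amounts. In the edgeR quasi-likelihood test with Benjamini-Hochberg adjustment, 36 of the 88 tested genes rose (40.9%), 22 fell (25%) and 30 did not pass 0.05. Over all 13216 tested genes, 40% rose and 39.8% fell, 79.8% in all beside 58 of the 88 here (65.9%), so the share that rose was near the background and the share that fell was below it. The median log2 fold change was 0.074 for the 88 genes and 0.001 for all tested genes, and the median size of the change was 0.26 against 0.68. Changes of 2-fold or more were called for 3 of the 88 (3.41%), Atp5s upward and Ndufaf4 and Cycs downward, where 33.9% of all tested genes had one, 15.9% upward and 18% downward. In CPM, the 3 D2 libraries all lay above the 3 NSC libraries for 38 of the 88 genes and all below for 27, beside 41.3% and 40.9% of all tested genes. None of the 58 called genes changed direction under any of the 14 alternative settings, and 11 of the 30 that did not pass, among them Cox5b, Cox8a and Atp5a1, took the other sign in at least 1. The split of calls did depend on how libraries were scaled: with a per-library trend on gene length removed, 31 rose and 31 fell. In that setting 5493 of all tested genes rose and 5038 fell. The median log2 fold change was then 0.009 for the 88 genes and 0.04 for all tested genes, so it no longer lay above the background. The tested members are short, with a median length of 721 bases against 2618 for all tested genes, and at 500 bases that trend was -0.0565 to -0.0241 (log2) in the NSC libraries and -0.000846 to 0.0946 in the D2 libraries.

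**Figure D2:**
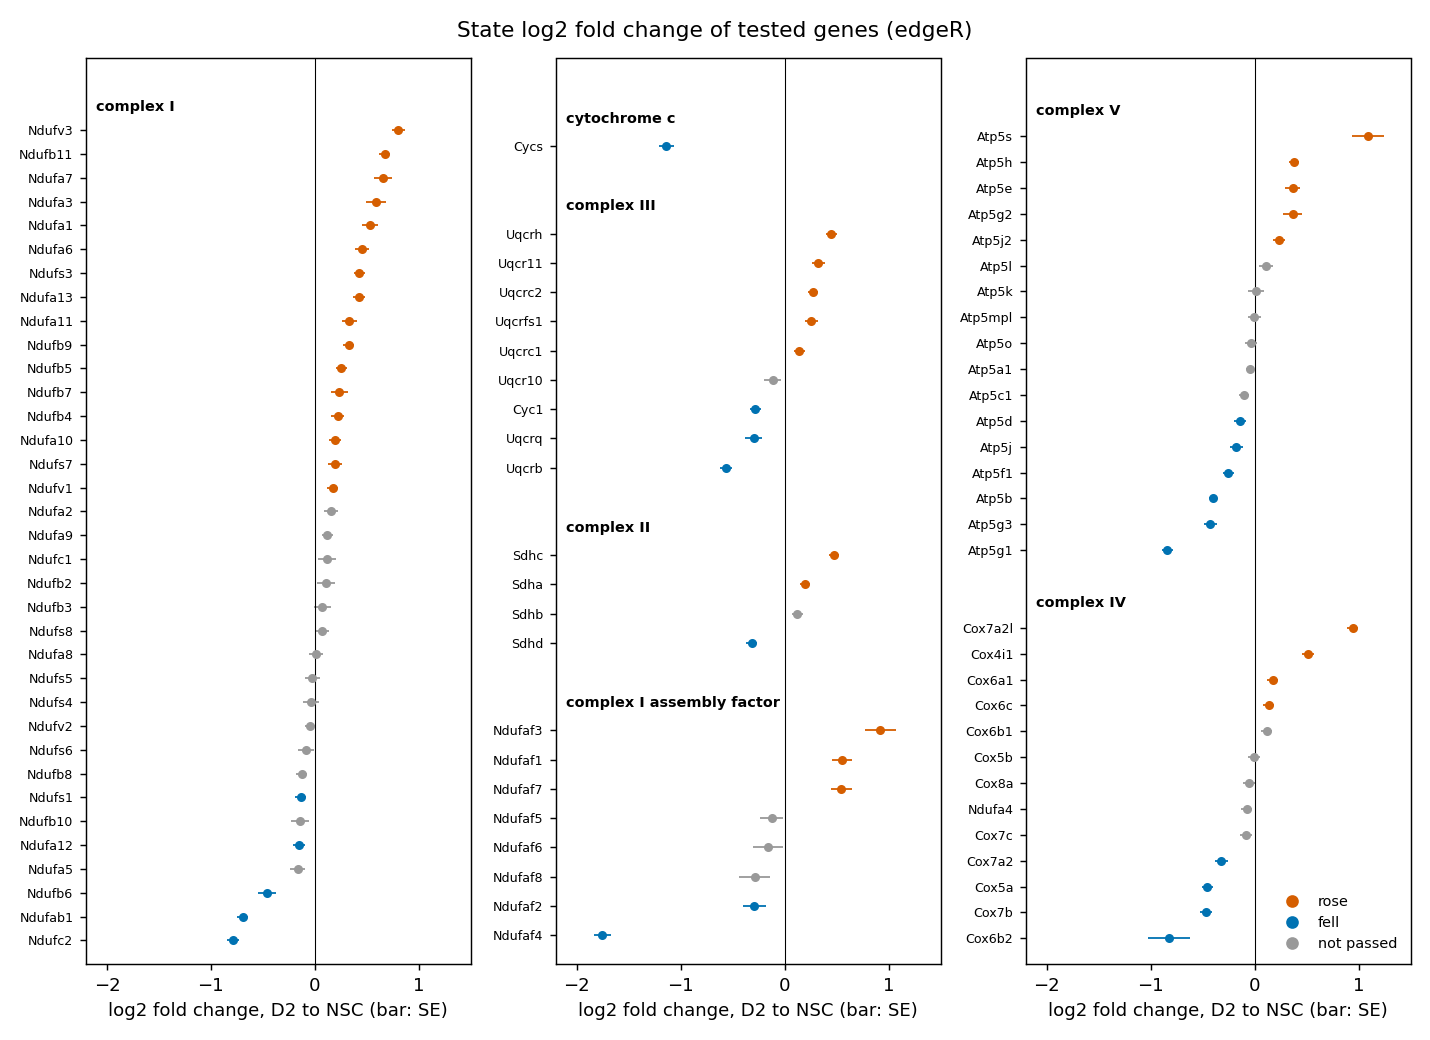
The edgeR log2 fold change from NSC to D2 of 87 of the 88 tested genes, with its SE as a bar, in 3 panels by complex; orange marks genes that rose, blue those that fell and grey those that did not pass an adjusted p of 0.05. Most lie within 1 of 0, with Ndufaf4 at -1.75, Cycs at -1.14 and Atp5s at 1.09 outside.

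The DNA before the start sites of the genes with the largest or most contrasting state differences is shown here so that it can be read beside their values. RefSeq windows (GRCm38.p6, 250 bases before to 50 after the start) were matched by symbol for 75 of the 95 genes. Each sequence is the 250 bases before the start, 5′ to 3′ on the gene's strand, with capitals for the motif of the transcription factor NRF1 (GCGCA, any base, then GCGC; NRF1 is known for activating nuclear genes of the respiratory chain) or TGACGTCA (the cyclic AMP response element, CRE). The windows are chr4:24897833-24898082, plus strand, for Ndufaf4 (ENSMUSG00000028261); chr6:50566570-50566819, minus strand, for Cycs (ENSMUSG00000063694); and chr17:83514334-83514583, minus strand, for Cox7a2l (ENSMUSG00000024248). For the subunit c genes they are chr11:96075632-96075881, minus strand, for Atp5g1 (ENSMUSG00000006057) and chr15:102671048-102671297, minus strand, for Atp5g2 (ENSMUSG00000062683).
Ndufaf4: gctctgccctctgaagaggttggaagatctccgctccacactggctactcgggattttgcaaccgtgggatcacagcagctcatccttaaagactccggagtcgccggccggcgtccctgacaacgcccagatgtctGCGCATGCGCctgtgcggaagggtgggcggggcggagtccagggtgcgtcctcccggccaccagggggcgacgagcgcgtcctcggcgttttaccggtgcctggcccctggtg
Cycs: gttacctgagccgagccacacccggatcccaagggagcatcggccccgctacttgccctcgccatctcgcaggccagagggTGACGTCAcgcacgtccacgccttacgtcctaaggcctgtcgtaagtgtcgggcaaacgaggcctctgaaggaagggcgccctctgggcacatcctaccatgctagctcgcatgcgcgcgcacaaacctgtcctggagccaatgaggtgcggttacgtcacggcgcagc
Cox7a2l: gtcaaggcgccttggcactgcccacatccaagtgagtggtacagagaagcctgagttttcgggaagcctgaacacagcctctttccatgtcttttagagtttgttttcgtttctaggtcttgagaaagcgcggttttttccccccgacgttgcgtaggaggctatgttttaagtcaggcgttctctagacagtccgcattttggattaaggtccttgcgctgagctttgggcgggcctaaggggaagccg
Atp5g1: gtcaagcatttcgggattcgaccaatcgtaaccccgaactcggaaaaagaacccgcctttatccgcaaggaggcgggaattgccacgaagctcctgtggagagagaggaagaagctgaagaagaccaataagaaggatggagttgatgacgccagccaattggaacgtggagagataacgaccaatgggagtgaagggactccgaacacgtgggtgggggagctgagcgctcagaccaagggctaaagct
Atp5g2: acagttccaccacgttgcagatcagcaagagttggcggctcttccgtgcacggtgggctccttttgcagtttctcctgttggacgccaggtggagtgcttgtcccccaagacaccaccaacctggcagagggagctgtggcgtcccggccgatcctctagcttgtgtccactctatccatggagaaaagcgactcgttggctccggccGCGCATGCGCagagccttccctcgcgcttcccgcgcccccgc
The NRF1 motif began at base -113 of Ndufaf4 and at base -42 of Atp5g2, and the CRE at base -169 of Cycs, counted from the start site. Neither motif was found in the 250 bases of Cox7a2l and Atp5g1. For Atp5g1, Atp5g2 and Cox7a2l the GENCODE gene begins upstream of the RefSeq start, so the window lies partly or wholly inside the annotated gene.

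Over the 300-base windows, searched on both strands, the NRF1 motif was in 25% of 80 windows of oxidative phosphorylation genes, 9.89% of 12784 windows of tested genes and 4.6% of all 32851 windows. The corresponding shares were 12.5%, 4.33% and 2.75% for AAGATGGC (YY1), 6.25%, 3.14% and 1.79% for the CRE, 22.5%, 17.1% and 8.86% for CCGGAAG (ETS factors such as GABP), and 43.8%, 63.1% and 35.7% for GGGCGG (SP1). None of these motifs contains another. Split by the state test, the NRF1 motif was in 26.7% of 30 windows of genes that rose, 15.8% of 19 of genes that fell and 32.1% of 28 of genes that did not pass. These shares describe letters in the windows, whose median GC content was 58.0% for the oxidative phosphorylation genes and 61.3% for tested genes.

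Complex I, the NADH dehydrogenase, is the largest of the complexes, and 17 of its 36 genes rose (47.2%), 5 fell (13.9%) and 14 did not pass. Over all tested genes 40% rose and 39.8% fell, the shares beside which the counts of each complex and family below are to be read. Among the core subunits of the quinone-binding module, where electrons leave the enzyme, Ndufs3 and Ndufs7 rose, and Ndufs8 stood at a log2 fold change of 0.074 with an adjusted p of 0.330 in edgeR. Ndufs3 was at 215, 226 and 225 TPM in the NSC libraries and 268, 309 and 292 TPM in the D2 libraries (control, naloxone and DAMGO, the order used throughout). Its D2 libraries all lay above its NSC libraries, with a log2 fold change of 0.43 ± 0.053 (SE, edgeR adjusted p = 1.18e-05). Exons of Ndufs3 overlap those of Kbtbd4 (mean 33.7 CPM) on the opposite strand. The core subunits of the NADH-oxidising module split: Ndufv1, which binds the flavin, had a log2 fold change of 0.17 and Ndufs1, which carries iron-sulphur clusters, one of -0.13, while Ndufv2 did not pass. Exons of Ndufs1 overlap those of Eef1b2 (mean 485 CPM) on the opposite strand, so reads there are ambiguous, and its expected counts were fractional in all 6 libraries. These calls rested on few libraries: Ndufs1, Ndufs7 and Ndufv1 passed the 0.05 threshold in the 6-library edgeR fit (adjusted p 0.0352, 0.0187 and 0.0114) and each lost it when particular libraries were left out. Ndufs1 had adjusted p of 0.148 to 0.163 without a control or a DAMGO library of either state, Ndufs7 had 0.0551 to 0.0894 without a control or a naloxone library, and Ndufv1 had 0.0626 to 0.0755 without a DAMGO library (edgeR).

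Among the accessory subunits, which surround the core and do not carry electrons, 7 of 13 in the A family rose (53.8%) and 2 fell (15.4%). In the B and C families 5 of 12 rose (41.7%) and 2 fell (16.7%). The largest rise was that of Ndufv3, a small subunit of the NADH-oxidising arm, which was at 140, 166 and 147 TPM in NSC and 226, 245 and 229 TPM in D2. The groups were well apart, and the log2 fold change was 0.80 ± 0.063 (edgeR adjusted p = 1.63e-07). Ndufb11, an X-linked subunit of the membrane arm, was at 258, 254 and 259.5 TPM in NSC and 423, 402 and 415 TPM in D2 (log2 fold change 0.68 ± 0.053, edgeR adjusted p = 1.64e-07). Its exons overlap those of Rbm10 on the opposite strand, and a kit that does not mark strand leaves reads in the overlap ambiguous. Ndufa7, an accessory subunit of the matrix arm, was at 254, 270.1 and 218 TPM in NSC and 399, 353 and 426 TPM in D2, a log2 fold change of 0.66 ± 0.090 (edgeR adjusted p = 2.59e-05). Ndufa3, Ndufa1, Ndufa6 and Ndufa13 followed with log2 fold changes of 0.59, 0.53, 0.46 and 0.42.

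The falls in complex I were fewer, and the largest, those of Ndufc2 and Ndufab1, were of highly expressed accessory subunits. Ndufc2, the most abundant complex I transcript in NSC, was at 641, 579 and 636 TPM in NSC and 361, 351 and 335 TPM in D2. All 3 D2 libraries were far below the NSC libraries (log2 fold change -0.79 ± 0.058, edgeR adjusted p = 8.81e-08). Ndufab1, the mitochondrial acyl carrier protein, which is at once a complex I subunit and a carrier for fatty acid synthesis in the matrix, was at 629, 600.2 and 599 TPM in NSC and 406, 397 and 383 TPM in D2. That fall was of -0.69 ± 0.054 on the log2 scale (edgeR adjusted p = 1.49e-07). Ndufb6, a membrane-arm subunit, was at 167, 150.4 and 187 TPM in NSC and 123, 128 and 115 TPM in D2, a log2 fold change of -0.46 ± 0.088 (edgeR adjusted p = 4.18e-04). With these shifts the most abundant complex I transcript by TPM was Ndufc2 in NSC and Ndufb11 in D2. Ndufa11, a membrane-arm subunit, was the least abundant by TPM in both, at 32.2, 29.8 and 30.2 TPM in NSC and 38.5, 39.0 and 39.4 TPM in D2 (log2 fold change 0.33 ± 0.071, edgeR adjusted p = 9.44e-04). That rank depends on its estimated length, 2661 bases: in CPM, not scaled for length, it was at 36.7 in NSC and 46.3 in D2, above Ndufa1 at 25.8 and 37.3. The expected counts of Ndufab1 and Ndufb6 were fractional in all 6 libraries, meaning that some reads were divided with other loci.

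The assembly factors of complex I were split, with 3 of 8 rising (37.5%) and 2 falling (25%). Ndufaf4, which acts early in the assembly of complex I, had the largest change of the 88 tested genes. It was at 54.3, 50.6 and 62.3 TPM in NSC and 13.2, 18.04 and 17.5 TPM in D2, so the groups were far apart. In CPM its NSC level was 3.38 times its D2 level, with a log2 fold change of -1.75 ± 0.083 (edgeR adjusted p = 1.54e-09). Its counts were whole numbers in every library. Ndufaf2, an assembly factor related in sequence to the accessory subunit Ndufa12, was at 64.6, 67.8 and 67.4 TPM in NSC and 59.2, 49.5 and 55.4 TPM in D2. Its log2 fold change was -0.29 ± 0.109 (edgeR adjusted p = 0.0275), and the call was lost without a naloxone or a DAMGO library of either state, with edgeR adjusted p of 0.0588 to 0.187. Ndufaf3, the partner of Ndufaf4 in the early assembly intermediates, moved the other way, from 11.6, 9.42 and 12.9 TPM in NSC to 28.3, 22.3 and 26.0 TPM in D2 (log2 fold change 0.92 ± 0.145, edgeR adjusted p = 9.11e-05). Its exons overlap those of Impdh2 on the opposite strand, and reads of the pair cannot be told apart there. Ndufaf1, which joins the intermediate of the membrane arm, was at 27.6, 25.1 and 24.6 TPM in NSC and 40.6, 38.4 and 39.5 TPM in D2 (log2 fold change 0.55 ± 0.098, edgeR adjusted p = 2.36e-04). Ndufaf7, a methyltransferase that acts in complex I assembly, was at 13.9, 12.9 and 11.3 TPM in NSC and 19.1, 20.02 and 17.0 TPM in D2 (log2 fold change 0.55 ± 0.105, edgeR adjusted p = 4.41e-04). The expected counts of Ndufaf7 were fractional in all 6 libraries.

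Complex II, succinate dehydrogenase, is the one enzyme shared by the respiratory chain and the TCA cycle, and 2 of its 4 genes rose (50%) and 1 fell (25%). Its membrane anchors, which hold the enzyme in the inner membrane and bind ubiquinone, moved in opposite directions. Sdhc was at 366, 332 and 323 TPM in NSC and 501, 443 and 497 TPM in D2, a log2 fold change of 0.47 ± 0.051 (edgeR adjusted p = 3.20e-06). Sdhd was at 217, 224 and 255 TPM in NSC and 179.9, 187 and 193 TPM in D2, a log2 fold change of -0.32 ± 0.055 (edgeR adjusted p = 1.87e-04). The states did not overlap for either anchor. Sdha, the flavoprotein that oxidises succinate, was at 256.5, 265 and 235 TPM in NSC and 279, 307 and 288 TPM in D2 (log2 fold change 0.19 ± 0.049, edgeR adjusted p = 3.00e-03). Sdhb, the iron-sulphur subunit, was at 263 ± 0.994 TPM in NSC and 287 ± 9.15 TPM in D2 and just missed the threshold (edgeR adjusted p = 0.0509).

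Complex III, the cytochrome bc1 complex, had 5 genes that rose (55.6%), 3 that fell (33.3%) and 1, Uqcr10, that did not pass. Its nuclear catalytic subunits differed in direction: Cyc1, the haem-bearing cytochrome c1, was at 338, 342 and 329 TPM in NSC and 272.5, 272.6 and 290.0 TPM in D2. This was a log2 fold change of -0.28 ± 0.055 (edgeR adjusted p = 5.23e-04). Uqcrfs1, the Rieske iron-sulphur protein, was at 237, 220.0 and 243 TPM in NSC and 285, 294 and 263 TPM in D2, with a log2 fold change of 0.26 ± 0.060 (edgeR adjusted p = 1.80e-03). The core protein Uqcrc2, which is related to mitochondrial processing peptidases, was at 237, 245 and 235 TPM in NSC and 289, 296 and 297 TPM in D2 (log2 fold change 0.28 ± 0.050, edgeR adjusted p = 2.68e-04). The other core protein, Uqcrc1, had a log2 fold change of 0.14 (edgeR adjusted p = 0.0216) that was lost without a control or a DAMGO library of either state, with edgeR adjusted p of 0.0756 to 0.150.

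The small subunits of complex III were also split. Uqcrh, the hinge protein that contacts cytochrome c1, was the most abundant complex III transcript, at 605, 619.9 and 625 TPM in NSC and 832, 851 and 859 TPM in D2. It lay higher in every D2 library (log2 fold change 0.45 ± 0.051, edgeR adjusted p = 4.77e-06). Uqcr11 was at 312, 318 and 321 TPM in NSC and 416, 386 and 405 TPM in D2, a log2 fold change of 0.32 ± 0.063 (edgeR adjusted p = 5.10e-04). Uqcrb, a ubiquinone-binding subunit, was at 447, 441 and 433 TPM in NSC and 292, 302 and 304 TPM in D2, the largest fall in the complex at -0.57 ± 0.057 (log2; edgeR adjusted p = 1.64e-06). Uqcrq, another ubiquinone-binding subunit, was at 533, 567 and 530.0 TPM in NSC and 507, 399 and 436 TPM in D2 (log2 fold change -0.30 ± 0.080, edgeR adjusted p = 4.53e-03). Its D2 libraries were themselves spread widely, with the control highest.

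Cytochrome c, the small haem protein that carries electrons from complex III to complex IV and that triggers caspase activation when released from mitochondria, was lower in D2. Cycs was at 46.4, 42.2 and 48.2 TPM in NSC and 21.4, 19.3 and 23.5 TPM in D2, and the groups did not overlap. In CPM its NSC level was 2.20 times its D2 level (log2 fold change -1.14 ± 0.073, edgeR adjusted p = 2.36e-08). Of the 80 tested genes other than the Ndufaf assembly factors, Cycs had the largest fall. Its expected counts were fractional in all 6 libraries, and cytochrome c is known to have many processed pseudogenes, so its level depends on how the authors' counting divided such reads.

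Complex IV, cytochrome c oxidase, had 4 genes that rose (30.8%), 4 that fell (30.8%) and 5 that did not pass among its 13 tested genes. Cox7a2l, a member of the Cox7a family also known as SCAF1 that joins complexes III and IV into supercomplexes, had the largest rise. It was at 329, 321.5 and 322 TPM in NSC and 619, 618 and 645 TPM in D2, so the states were separated by much more than the spread within either. Its CPM was 1.92 times higher in D2 (log2 fold change 0.94 ± 0.051, edgeR adjusted p = 4.84e-09). Cox7a2, the Cox7a form of most non-muscle tissues, was at 279, 278 and 269 TPM in NSC and 235, 203 and 228 TPM in D2 (log2 fold change -0.32 ± 0.065, edgeR adjusted p = 6.72e-04). As shares of the summed TPM of the Cox7a family, Cox7a2l went from 54.1%, 53.5% and 54.3% in NSC to 71.9%, 74.9% and 73.6% in D2, and Cox7a2 from 45.8%, 46.3% and 45.3% to 27.3%, 24.6% and 26.1%. The expected counts of Cox7a2l were fractional in all 6 libraries.

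Of the large nuclear subunits of complex IV, Cox4i1, a subunit through which ATP regulates the enzyme, was at 857, 898 and 862 TPM in NSC and 1242, 1153 and 1362 TPM in D2. It was the most abundant complex IV transcript in D2, with a log2 fold change of 0.52 ± 0.057 (edgeR adjusted p = 4.26e-06). Its exons overlap those of Emc8 on the opposite strand, which leaves reads in that stretch ambiguous. Cox5a, to which thyroid hormone metabolites bind, went down from 574, 551 and 578 TPM in NSC to 423, 412 and 415 TPM in D2 (log2 fold change -0.45 ± 0.052, edgeR adjusted p = 5.03e-06). The expected counts of Cox5a were fractional in all 6 libraries. Cox5b, its zinc-binding neighbour, stood at a log2 fold change of -0.0057. Cox7b, an X-linked small subunit, was at 523, 591 and 496 TPM in NSC and 417, 418 and 399 TPM in D2 (log2 fold change -0.47 ± 0.057, edgeR adjusted p = 8.71e-06). Its NSC naloxone library stood high in TPM although its CPM values were 124, 123 and 116 in the NSC libraries; TPM also depends on the gene length that the authors' software estimated in each library. Cox6a1, the widely expressed form of subunit 6a, was at 701, 711 and 703 TPM in NSC and 809, 768 and 825 TPM in D2. Its log2 fold change of 0.17 (edgeR adjusted p = 0.0104) was lost without a control or a DAMGO library of either state, with edgeR adjusted p of 0.0560 to 0.0923. Cox8a at 1060 ± 28.9 and 1027 ± 64.8 TPM, Ndufa4 at 837 ± 14.3 and 797.5 ± 11.9 TPM, and Cox6b1 at 831 ± 14.4 and 906 ± 28.8 TPM (NSC and D2) did not pass, and Cox8a was the most abundant complex IV transcript in NSC. Ndufa4 was first named as a complex I protein and is now placed in complex IV.

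Complex IV has several tissue-restricted isoforms, and 6 of those 7 genes, together with Ndufa4l2, were too low to be tested. Cox6a2, Cox7a1 and Cox8b, the forms of heart and skeletal muscle, had 2 to 8, 1 to 3 and 4 to 6 counts in the NSC libraries and 0, 3 to 9 and 0 to 1 counts in the D2 libraries. Summed muscle markers were at 6.28 to 9.01 CPM in NSC and 1.67 to 2.15 CPM in D2. That fall came from Myh7, the only one of them above the filter, at 5.06 to 7.98 CPM in NSC and 0 to 0.196 CPM in D2. Tnnt3 went the other way, from 0 to 0.110 CPM in NSC to 0.588 to 0.904 CPM in D2. Cox4i2, a form linked to lung and to oxygen sensing, had 0 to 1 counts, Ndufa4l2, induced by hypoxia, had 0 to 4, and Cox7b2 and Cox8c, known from testis, had 0 in all 6 libraries, which allows up to 3 counts in each. Cox6b2, the testis form of subunit 6b, was the only such isoform above the filter, at 35.2, 33.8 and 36.6 TPM in NSC and 14.6, 25.5 and 23.7 TPM in D2. It fell by 0.83 ± 0.203 on the log2 scale (edgeR adjusted p = 2.64e-03) and made up 3.85% to 4.29% of the summed Cox6b TPM in NSC and 1.55% to 2.84% in D2.

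Complex V, the ATP synthase, had 5 genes that rose (29.4%), 6 that fell (35.3%) and 6 that did not pass, beside 40% and 39.8% of all tested genes. In the catalytic F1 head, Atp5b, the beta subunit that holds the catalytic sites, was the most abundant of the 88 tested genes. It was at 2157, 2207 and 2045 TPM in NSC and 1539.6, 1606 and 1559 TPM in D2, a log2 fold change of -0.40 ± 0.039 (edgeR adjusted p = 1.20e-06). Its expected counts were fractional in all 6 libraries. Its partner in the head, Atp5a1, the alpha subunit, was at 1071 ± 12.9 TPM in NSC and 1043 ± 22.3 TPM in D2 and did not pass (edgeR adjusted p = 0.332). Atp5e, the small epsilon subunit of the central stalk, was at 282, 293 and 305 TPM in NSC and 411, 359 and 404 TPM in D2, a log2 fold change of 0.37 ± 0.072 (edgeR adjusted p = 4.89e-04). Atp5d, the delta subunit beside it, was lower by a log2 fold change of -0.14 (edgeR adjusted p = 0.0353), a call lost without a control or a naloxone library of either state (edgeR adjusted p 0.0578 to 0.211). In the peripheral stalk, which keeps the head from turning, Atp5h was at 684, 693 and 685 TPM in NSC and 880.0, 897 and 908 TPM in D2 (log2 fold change 0.38 ± 0.051, edgeR adjusted p = 2.14e-05), while Atp5f1 had a log2 fold change of -0.25 ± 0.049 (edgeR adjusted p = 5.24e-04) and Atp5o did not pass. The expected counts of Atp5f1 were fractional in all 6 libraries, and its exons overlap those of Wdr77 (mean 116 CPM) on the opposite strand. Atp5s, known as coupling factor B, was the least abundant complex V transcript, at 8.96, 7.93 and 7.77 TPM in NSC and 15.6, 18.5 and 19.0 TPM in D2. It had the largest rise of the 88 tested genes, with a CPM 2.14 times higher in D2 (log2 fold change 1.09 ± 0.154, edgeR adjusted p = 3.56e-05).

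Subunit c forms the rotating ring of the membrane part, and 3 nuclear genes, Atp5g1, Atp5g2 and Atp5g3, encode the same mature protein behind different import presequences. Atp5g1 was at 399.9, 379 and 385 TPM in NSC and 213, 209 and 206 TPM in D2, without overlap (log2 fold change -0.84 ± 0.055, edgeR adjusted p = 2.92e-08). Atp5g3, the most abundant of them in NSC, was at 814, 787 and 891 TPM in NSC and 676, 598 and 589 TPM in D2 (log2 fold change -0.43 ± 0.062, edgeR adjusted p = 4.19e-05). Atp5g2 was at 426, 363 and 367.5 TPM in NSC and 419, 485 and 611 TPM in D2, so that the control libraries of the states were nearly level. It rose in the edgeR test (log2 fold change 0.37 ± 0.090, adjusted p = 2.53e-03), and its states overlapped in TPM but not in CPM, where the values were 123, 105 and 107 in NSC and 127, 141 and 167 in D2. The summed TPM of the ring genes was 1604 ± 65.9 in NSC and 1336 ± 62.4 in D2. As shares of that sum, Atp5g1 went from 24.4%, 24.8% and 23.4% to 16.3%, 16.2% and 14.7%, Atp5g2 from 26.0%, 23.8% and 22.4% to 32.0%, 37.5% and 43.4%, and Atp5g3 from 49.6%, 51.5% and 54.2% to 51.7%, 46.3% and 41.9%. The expected counts of Atp5g1 and Atp5g2 were fractional in all 6 libraries and those of Atp5g3 were whole. Over the 300-base windows the NRF1 motif was found for Atp5g2, which rose, and Atp5g3, which fell, and not for Atp5g1.

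**Figure D3:**
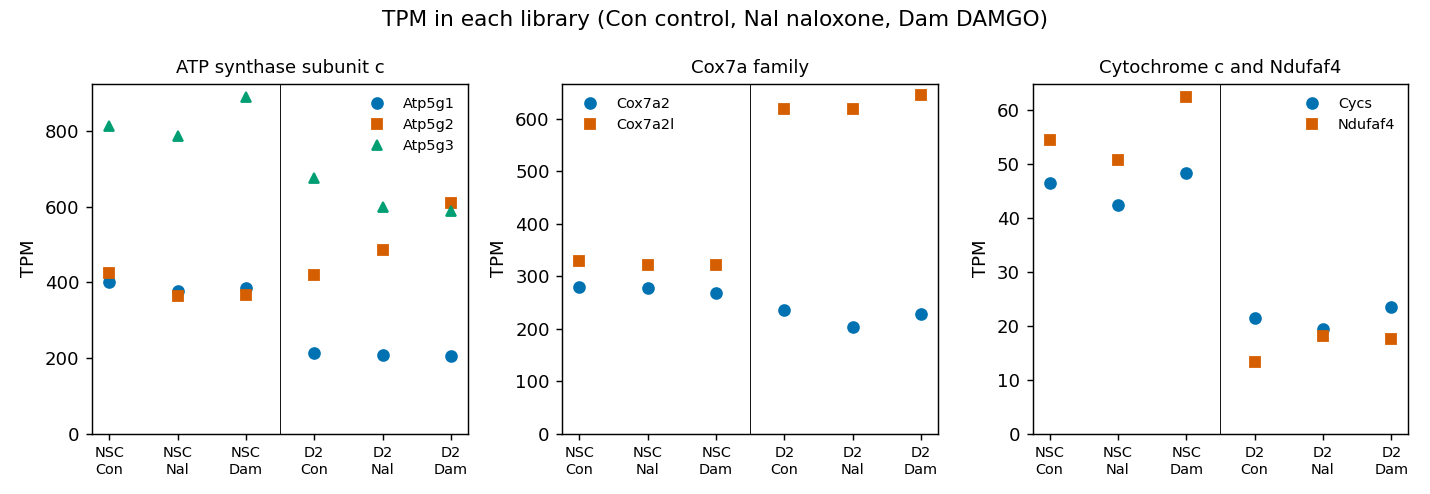
TPM in each of the 6 libraries (Con control, Nal naloxone, Dam DAMGO, with NSC left of the vertical line and D2 right of it) of the subunit c genes, the Cox7a genes, and Cycs with Ndufaf4; each marker is 1 library and each axis starts at 0. Atp5g1 drops from 379 to 399.9 TPM in NSC to 206 to 213 TPM in D2 while Atp5g2 in D2 runs from 419 to 611 TPM, and Cox7a2l separates from Cox7a2 in D2.

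The genes that serve these complexes also moved in both directions. Of 48 tested assembly factors outside the Ndufaf names, 19 rose and 10 fell, with a median log2 fold change of 0.066. The falls numbered 5 with DESeq2 and 7 to 8 with 1 library left out. Surf1, which helps to insert haem into complex IV and is mutated in Leigh syndrome, was at 21.5 ± 1.59 CPM in NSC and 42.2 ± 2.85 CPM in D2 (log2 fold change 0.97), and the complex III factor Uqcc3 and the complex IV factor Coa4 rose by log2 fold changes of 1.24 and 1.05. Cmc2 fell from 19.8 ± 2.29 to 8.58 ± 0.591 CPM (log2 fold change -1.20), Lrpprc, which stabilises mitochondrial messenger RNAs, from 112 ± 3.41 to 61.2 ± 1.57 CPM (-0.87), and Sdhaf3, a complex II factor, by a log2 fold change of -0.66. Of 26 tested genes of the TCA cycle and pyruvate metabolism, 10 rose and 11 fell. The largest rises were of genes at the entry of pyruvate rather than of the cycle itself: Pdk2 and Pdk1, kinases that switch off pyruvate dehydrogenase, with log2 fold changes of 3.02 and 1.55, and Pcx, pyruvate carboxylase, with 1.77 (105 ± 6.18 to 359 ± 5.80 CPM). Dld, the shared E3 subunit of the 2-oxoacid dehydrogenases, Sucla2, a succinyl-CoA ligase subunit, and Idh2, the NADP-linked isocitrate dehydrogenase, fell by 1.01, 0.84 and 0.82 on the log2 scale.

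Of 17 tested carriers and porins, which pass metabolites through the mitochondrial membranes, 4 rose and 8 fell. Slc25a13, an aspartate-glutamate carrier, fell by 2.07 on the log2 scale, the iron importer Slc25a37 by 1.59 and the porin Vdac2 by 0.83, while Slc25a27, Slc25a11 and Slc25a1 rose by log2 fold changes of 0.51, 0.38 and 0.30. The count of falls was 5 without the NSC control library and 5 without the D2 control library. In the additive fit these are not separate checks, since both leave the state contrast resting on the naloxone and DAMGO conditions. Among 20 genes of quinone synthesis and quinone-linked enzymes, 7 rose and 7 fell, from Coq8a at a log2 fold change of 3.66, with Coq8b (1.08) and Etfb (0.92), to Pdss1, which makes the side chain of ubiquinone, at -2.33, Hccs, which attaches haem to cytochrome c, at -1.18 and Coq7 at -1.12. Of 32 tested regulators of mitochondrial gene expression, 4 rose and 18 fell, with a median log2 fold change of -0.28. Pprc1, a coactivator related to PGC-1, fell from 142 ± 3.92 to 37.0 ± 1.42 CPM (log2 fold change -1.94), and the coactivator Ppargc1b and the nuclear receptor Esrrb had log2 fold changes of -2.003 and -3.57. Mtif3 and Polg2, which act in mitochondrial translation and DNA replication, and Mterf4 rose by log2 fold changes of 1.13, 0.73 and 0.68. For every list the same shares over all tested genes were 40% risen and 39.8% fallen, with a median of 0.001, and every change named here passed an edgeR adjusted p of 0.05.

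Neither opioid ligand gave a call among the oxidative phosphorylation genes. With naloxone against control and DAMGO against control over both states, which share the control libraries, 0 of 88 genes passed in edgeR for either ligand, beside 0.0151% of all tested genes for each. DESeq2 and limma also gave 0. At an unadjusted p of 0.05, 0 genes passed for naloxone and 1 for DAMGO, beside 2.22% and 2.4% of all tested genes. That gene was Sdhd, the complex II anchor, at 122, 125.5 and 143 CPM in NSC and 101, 103 and 109 CPM in D2, with a DAMGO log2 fold change of 0.17 and an unadjusted edgeR p of 0.0277 (adjusted p of 1). The DAMGO library was the highest of its state in both, though in D2 by little. For naloxone the log2 fold changes ran from -0.18 (Ndufaf1) to 0.17 (Cox6b2), with 65 of 88 below 0 and a median of -0.039, beside 50.8% of all tested genes below 0 and a median of -0.002. For DAMGO they ran from -0.23 (Ndufaf7) to 0.31 (Cox6b2), with 49 of 88 below 0 and a median of -0.007, beside 50.8% and -0.002. The median SE of these fold changes was 0.073 for each ligand. At 500 bases the per-library trend on gene length (log2) was -0.0406, -0.0565 and -0.0241 in the NSC control, naloxone and DAMGO libraries. In the D2 libraries it was 0.0274, -0.000846 and 0.0946. The part of that trend in the ligand values of these short genes was not tested.

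Within a state each ligand is 1 library against 1 control library, so the log2 ratios of CPM that follow carry no test, and their 95% exact binomial intervals cover counting error only. Among the 79 genes of at least 20 CPM, none had a ratio past 0.5 in size in a single state or past 0.3 in the same direction in both. Over all 8273 genes of that level, the shares past 0.5 were 0.218% and 1.81% for naloxone in NSC and D2 and 0.254% and 1.37% for DAMGO, and past 0.3 in both states 0.0725% and 0.0121%. In NSC, naloxone ratios ran from -0.23 (Ndufc1) to 0.18 (Ndufa3) with a median of -0.005 and 42 of 79 (53.2%) below 0, beside 52.3% of the 8273 genes, and DAMGO ratios from -0.20 (Ndufb10) to 0.23 (Sdhd) with a median of -0.012 and 42 of 79 below 0, beside 51.5%. In D2, naloxone ratios ran from -0.38 (Uqcrq) to 0.18 (Ndufv3), and 54 of 79 (68.4%) were below 0, where 51.6% of the 8273 genes were, with medians of -0.063 and -0.006. The interval left out 0 for 28 of the 79 genes with naloxone in D2, beside 27.2% of the 8273 genes, and for 9 with naloxone in NSC (beside 10%), 9 with DAMGO in NSC (8.84%) and 11 with DAMGO in D2 (20.3%). DAMGO ratios in D2 ran from -0.26 (Ndufb2) to 0.40 (Atp5g2), with 45 of 79 (57.0%) below 0 beside 52.4%, and medians of -0.018 and -0.007.

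The lowest and highest ratios rest on the following levels. Uqcrq, the ubiquinone-binding subunit of complex III, was at 81.2 CPM in the D2 control and 62.4 CPM with naloxone, a log2 ratio of -0.38 (95% interval -0.54 to -0.22). In NSC the same gene was at 85.6 and 91.6 CPM, a ratio of 0.098 whose interval of -0.027 to 0.22 includes 0. Atp5g2, of the subunit c ring, was at 127 CPM in the D2 control and 167 CPM with DAMGO, a ratio of 0.40 (0.29 to 0.51), and at 123 and 107 CPM in NSC, a ratio of -0.20 (-0.32 to -0.079). Ndufv3, the complex I subunit that rose most between the states, was at 74.7 and 84.8 CPM in D2 (naloxone ratio 0.18, interval 0.033 to 0.33) and at 44.9 and 48.5 CPM in NSC (0.11, -0.060 to 0.28). For the genes with large state differences the ligand values were as follows: for Cycs the naloxone and DAMGO log2 fold changes were -0.033 ± 0.087 and 0.12 ± 0.088, for Ndufaf4 they were 0.014 ± 0.098 and 0.18 ± 0.098, and for Cox7a2l they were -0.033 ± 0.061 and 0.020 ± 0.062 (SE, edgeR), none of which passed.

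**Figure D4:**
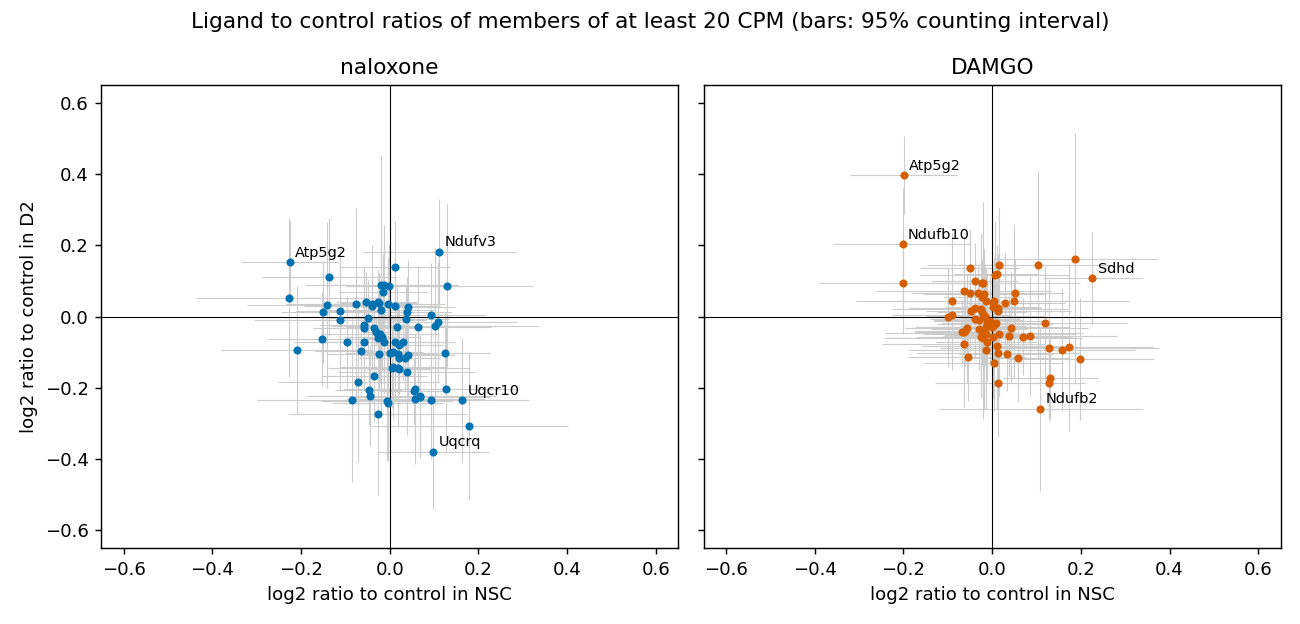
Log2 ratio of each ligand library to its control in NSC (horizontal axis) and D2 (vertical axis) for the 79 genes of at least 20 CPM, naloxone left and DAMGO right; grey bars are 95% binomial intervals, which cover counting error only. No point passes 0.5 in size on either axis; Uqcrq with naloxone in D2 (-0.38) and Atp5g2 with DAMGO in D2 (0.40) lie farthest out.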

How the data were processed

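Per the labels' protocols, Trizol was used for extraction and an Illumina TruSeq RNA kit, which does not mark strand, for library construction. Bowtie, RSEM and the build mm10 are named in the submitters' processing notes; versions, annotation and filters were not given in any source used here. The authors deposited for each of 6 libraries (1 per group) an expected count and a TPM value per gene. Expected counts divide reads that map to several loci, and the deposited TPM values add to the same total in each library. FPKM was not used. Gene identifiers were matched to GENCODE M21 symbols (28756 of 29267).

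Expected counts were rounded to whole numbers. The 13216 genes averaging 10 counts or more were TMM-scaled. Quasi-likelihood tests (glmQLFit, glmQLFTest; edgeR 4.0.16, R 4.3.3) used state and ligand as additive terms, leaving 2 residual degrees of freedom, which also hold any ligand effect that differs between states. P-values were adjusted by Benjamini-Hochberg over all tested genes, threshold 0.05. The common biological coefficient of variation was 0.0529. Ligand ratios within a state used a prior count of 2 and exact binomial 95% intervals. With 0 counts a library may hold up to 3. Counting intervals and such limits cover counting error only.

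Values in every library are given for the 3 largest called rises and falls in each complex, for subunit c genes, for the most and least abundant tested gene of each complex, and for genes past the ligand ratio limits. They are also given for tested tissue isoforms, except Cox8a, Ndufa4 and Cox6b1, which are given as mean and SD per state. Untested isoforms are given as count ranges. From each pathway list the 3 largest called rises and falls of at least 5 CPM were named. A few further genes (Ndufs3 and genes of similar roles) were picked as examples of their role after seeing their values. The genes and lists were chosen with earlier results of these data known. Alternatives were RLE and upper quartile scaling, DESeq2 1.42.0, limma 3.58.1 on log2(TPM + 1), no filter, a mean of 50 counts, a length trend removed, no ligand term, and each library left out. The scripts were tested on simulated data. The values of 1 complex I gene are not reported here, though counts over the complex include it.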

Additional observations from a re-analysis of the deposited data

Results flagged for a closer look

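Within-state log2 ratios to control pointed in opposite directions in NSC and D2, each with a counting interval away from 0, for these genes. With 1 library per group the difference between the states was not tested. Over all 8273 genes of at least 20 CPM, the interval left out 0 for 10% with naloxone in NSC and 27.2% in D2. For DAMGO the shares were 8.84% and 20.3%. How many of those genes pointed in opposite directions was not counted, so these genes cannot be said to stand out. For naloxone they were Uqcr10, a small subunit of complex III, at 0.163 in NSC and -0.235 in D2, and Atp5g2, of the ATP synthase ring, at -0.226 and 0.153. For DAMGO they were Ndufb10, a complex I accessory subunit, at -0.202 and 0.203, Atp5g2 at -0.199 and 0.397, Atp5g3 at 0.129 and -0.186, and Atp5j, of the peripheral stalk, at 0.131 and -0.171. Atp5g2 appears for both ligands, which share the control library of each state.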

How the results depend on the processing

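Over 14 alternatives the oxidative phosphorylation genes called higher in D2 numbered 30 to 41 (36 as reported) and those called lower 17 to 31 (22). With 1 library left out, 30 to 39 were higher and 20 lower each time. Leaving out the NSC or the D2 library of a ligand condition rests the state contrast on the same other conditions, so these fits amount to 1 check per ligand condition. The count was 30 higher and 17 lower with DESeq2, 41 and 17 with upper quartile scaling, under which the median of all tested genes was 0.064, and 31 and 31 with the length trend removed. Over all tested genes, 5287 were higher and 5256 lower as reported. Those counts were 4524 and 4572 with DESeq2, 5604 and 4920 with upper quartile scaling, and 5493 and 5038 with the length trend removed. The same call held in every alternative for 28 of the 36 risen, 17 of the 22 fallen and 15 of the 30 not passed. The ligand contrasts gave 0 calls in all 13 alternatives run for them. In the lists, DESeq2 called 5 assembly factors lower (10 as reported) and 2 regulators higher (4), and carriers and porins called lower numbered 5 to 7 (8) with 1 library left out, 5 of them without either control library. On summed TPM the log2 ratio of D2 to NSC was 0.096 for complex I, 0.197 for II, 0.048 for III and -0.098 for V, where medians gave 0.201, 0.151, -0.156 and 0.087. The cause was not tested. No paired analysis was possible because each group holds 1 library and so has no replicate numbers to pair. The fit with ligand and state as additive terms already compares the states within a ligand condition. Without the ligand term 40 oxidative phosphorylation genes were higher and 25 lower, beside 5378 and 5332 of all tested genes. With 1 library a group, depth and the number of libraries limit small changes such as those of the ligands.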
